A study of Mus musculus with 48 samples.

Results

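The mammalian circadian clock was followed through postnatal growth of the mouse small intestine by the transcript levels of 10 of its genes: Arntl (also called Bmal1), Clock, Per1, Per2, Per3, Cry1, Nr1d1, Nr1d2, Dbp and Tef. The genes were taken by symbol from the deposited tables, and all 10 were present among 54532 gene identifiers. All 10 also passed the low-count filter, which left 21986 genes, and the lowest estimated count of any of them in a sample was 35. Total RNA had been sequenced from 2 cm pieces of whole-thickness intestine, one directly behind the stomach outlet (duodenum) and one directly ahead of the junction with the caecum (ileum). The mice carried the C57Bl/6J background with no altered allele and no treatment, were of both sexes, were housed in what the labels call standard germ-free conditions, and stayed with the dam for the first weeks before moving to chow. Each region was sampled at 8 ages, namely days 0, 2, 4, 6 and 8 and weeks 2, 3 and 4, with 3 samples in each of the 16 groups. The day 6 sample numbered 3 of each region was left out, which left 2 samples at that age and 46 samples in all. The labels do not say that the samples of a group came from separate litters or that a duodenum and an ileum sample shared an animal, so the p-values measure the spread between these samples. The hour of collection is not in the labels, so a change with age and a difference in the hour at which animals of each age were taken cannot be told apart.

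The clock is a transcriptional feedback loop that runs in nearly every cell. Arntl and Clock proteins pair and bind E-box sequences, where they activate the Per and Cry genes, and Per and Cry proteins return to the nucleus and repress that pair. A second loop runs through Nr1d1 and Nr1d2 (REV-ERB alpha and beta), which the same pair activates and which repress Arntl through sequences shared with the ROR receptors. Dbp and Tef are output factors that bind D-box sequences. In an adult tissue with a running clock, Arntl transcripts therefore peak at hours when Nr1d1 and Dbp transcripts are low, and in the gut the loop is set by feeding and by glucocorticoid hormone as well as by light.

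Depth ranged from 16824021 to 65042327 estimated counts a sample, and mitochondrial transcripts took 13.1% to 35.2% of them. Levels below are CPM (counts scaled to a common library size with edgeR's TMM factors), and they are compared within a gene and not between genes. Although the tissue is labelled whole thickness, 5 smooth muscle markers (Acta2, Myh11, Actg2, Tagln and Des) summed to 4.53 to 182 CPM, against 2886 to 9460 CPM for 5 epithelial markers (Epcam, Cdh1, Krt8, Vil1 and Cldn7). In such bulk tissue, fewer cells of a type and less RNA per cell cannot be told apart. The left-out day 6 samples go against their labels: Pdx1, which marks the duodenum, had 0.115 CPM in the library labelled duodenum and at 14.6 CPM in the library labelled ileum, against 11.1 and 11.8 CPM in duodenum samples 1 and 2 and 0.0872 and 0.421 CPM in ileum samples 1 and 2 of that age. Per2 followed the same exchange, with 95.9 CPM in the left-out library labelled duodenum (others 39.9 and 49.0 CPM) and 37.4 CPM in that labelled ileum (others 98.6 and 104 CPM). Transcripts of the Y-linked gene Ddx3y were above 1 CPM in 3 of 3 duodenum and 1 of 3 ileum samples at day 0. They were above it in 0 of 3 samples of each region at day 8, 1 of 3 at week 2, 2 of 3 at week 3 and 0 of 3 at week 4. Thus the number of samples with Ddx3y moved with age over the steps tested below, and at day 0 it differed between the regions. All 3 duodenum samples of day 0 also had Xist, an X-linked transcript that marks females, above 1 CPM. This threshold alone therefore does not give the sex of each sample. The part of sex in the results was not tested.

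RefSeq start sites on GRCm38.p6 were found for 9 of the 10 genes, in 14 windows of 300 bases (250 before the start and 50 after it). Windows were searched on both strands for the E-box CACGTG, the D-box written as TTATGTAA or TTACGTAA, the AGGTCA core that ROR and REV-ERB receptors recognise, and the cyclic AMP response element TGACGTCA. None of these motifs contains another, and a palindrome was counted once. An E-box was found in 4 of the 14 windows (in Per1, Cry1 and both windows of Tef), against 7.15% of 32851 promoter windows placed in the same way at start sites of all genes. A D-box was found in 1 of the 14 (Per3), against 1.06%, and the AGGTCA core in 4 of the 14 (Arntl, Clock, Per1 and Nr1d2), against 16.3%. No cyclic AMP response element was found in the members' windows, against 1.79% of all windows. The 250 bases before 4 start sites are shown, chosen because they carry the motifs of each class, with each match in capitals and the rest in lower case, 5′ to 3′ on the strand of the gene. Per3, whose pair of D-boxes lies 205 and 158 bases before the start, occupies chr4:151044666-151044915 (minus strand). Per1, with an E-box at 166 and the AGGTCA core (read on the other strand as TGACCT) at 137 bases before the start, occupies chr11:69098699-69098948 (plus strand). Cry1, with an E-box 60 bases before the start, occupies chr10:85185055-85185304 (minus strand), and Nr1d2, with the core 77 bases before the start, occupies chr14:18239107-18239356 (minus strand).
Per3: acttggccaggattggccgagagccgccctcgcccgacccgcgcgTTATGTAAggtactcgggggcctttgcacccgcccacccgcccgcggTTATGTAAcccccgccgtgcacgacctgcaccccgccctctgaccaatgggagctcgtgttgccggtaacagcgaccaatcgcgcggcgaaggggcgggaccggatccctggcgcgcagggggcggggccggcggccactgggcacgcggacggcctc
Per1: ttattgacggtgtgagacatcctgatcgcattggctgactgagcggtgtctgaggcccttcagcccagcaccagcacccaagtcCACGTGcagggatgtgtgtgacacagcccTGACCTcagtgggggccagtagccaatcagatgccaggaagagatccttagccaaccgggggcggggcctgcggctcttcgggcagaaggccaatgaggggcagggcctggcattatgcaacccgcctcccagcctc
Cry1: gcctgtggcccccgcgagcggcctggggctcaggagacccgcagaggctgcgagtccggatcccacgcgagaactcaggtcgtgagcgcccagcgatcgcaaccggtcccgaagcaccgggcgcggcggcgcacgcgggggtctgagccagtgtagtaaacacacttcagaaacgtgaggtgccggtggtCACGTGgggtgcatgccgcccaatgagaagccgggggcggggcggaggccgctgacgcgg
Nr1d2: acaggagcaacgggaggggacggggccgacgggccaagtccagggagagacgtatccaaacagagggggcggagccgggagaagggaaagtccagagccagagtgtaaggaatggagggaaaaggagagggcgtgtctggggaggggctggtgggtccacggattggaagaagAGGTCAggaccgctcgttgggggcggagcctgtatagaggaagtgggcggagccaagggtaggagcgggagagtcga
A match describes letters in a window and not a bound site, and a window with none, as for Nr1d1 and Dbp, says only that these letters are not within it.

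All 10 are protein-coding genes, placed here on GRCm38 (the mm10 build that the submitters' processing notes name). The activators are Arntl on chr7:113207465-113314126 (plus strand) and Clock on chr5:76209868-76304792 (minus strand). The repressors are Per1 on chr11:69095217-69109960 (plus strand), Per2 on chr1:91415982-91459324 (minus strand), Per3 on chr4:151003652-151044665 (minus strand) and Cry1 on chr10:85131700-85185064 (minus strand). The REV-ERB genes are Nr1d1 on chr11:98767932-98775333 (minus strand) and Nr1d2 on chr14:18204054-18239127 (minus strand). The output factors are Dbp on chr7:45705088-45710203 (plus strand) and Tef on chr15:81802421-81826863 (plus strand).

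The first question was which clock genes changed with age in each region. In edgeR's quasi-likelihood F test across the 8 ages, 9 of the 10 genes differed between duodenal ages and the same 9 between ileal ages, against 67.4% and 58.7% of all genes tested. Clock, the partner of Arntl, was the exception, with adjusted p = 0.313 and 0.446. The spread of the 16 group means on the log2 scale was widest for Nr1d1 (SD 1.79), Dbp (1.09) and Nr1d2 (1.06) and narrowest for Clock (0.17) and Cry1 (0.28), against a median of 0.42 over the 12415 genes whose mean log2 CPM was 1 or more. Within groups, Arntl was among the steadiest of those genes (pooled SD 0.17, lower than that of all but 10.03% of genes), while Nr1d2 varied more than 80.1% of them (SD 0.36).

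**Figure D1:**
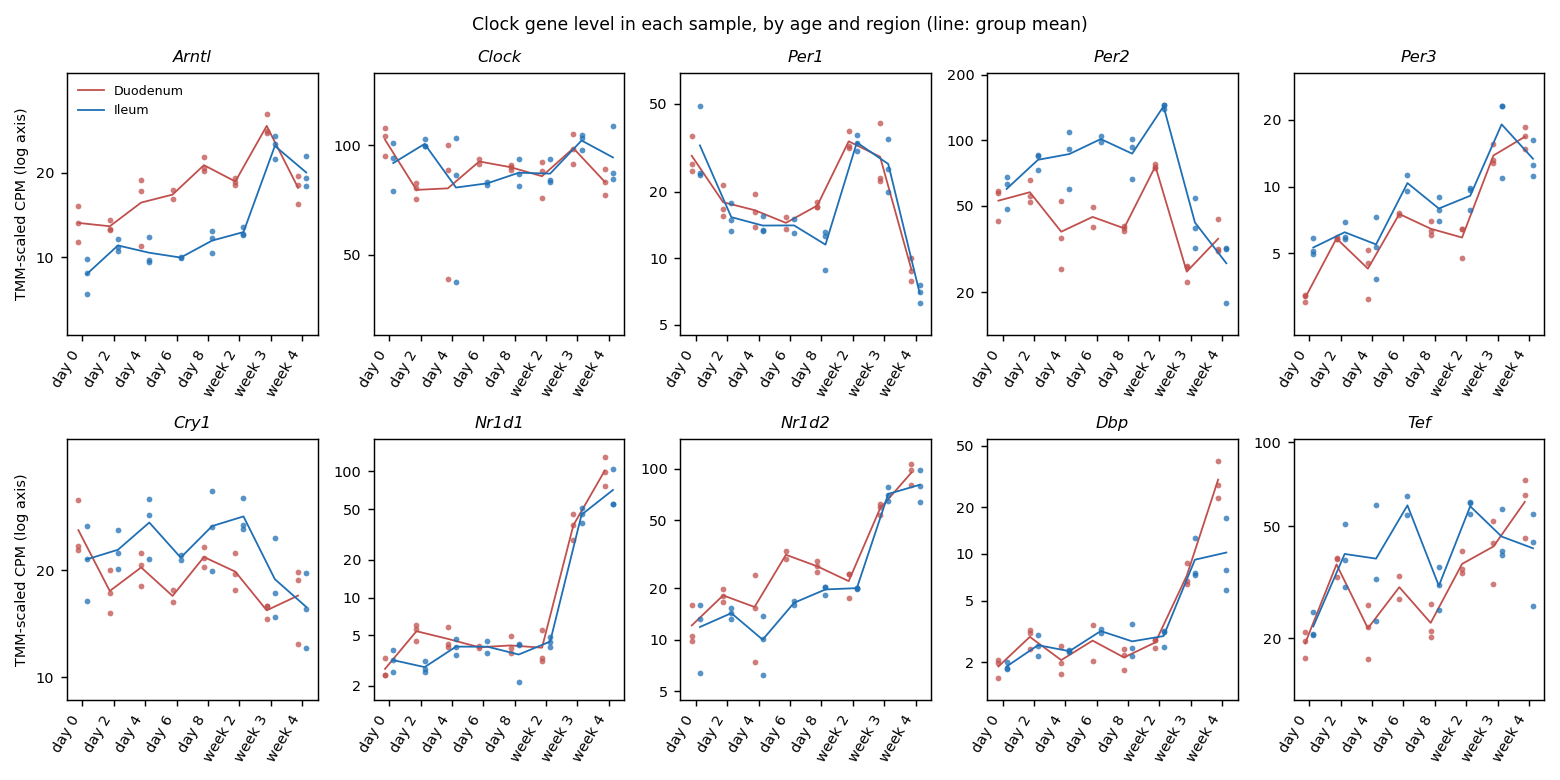
Level of each clock gene in every sample (points, TMM-scaled CPM on a log axis) against age, with the group mean as a line, duodenum in red and ileum in blue. Nr1d1, Nr1d2 and Dbp are higher in every week 3 and week 4 sample than in any earlier sample of the region, while Per2 peaks at week 2 and Clock shows no steady course.

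The positive limb came first. In the duodenum Arntl stood at 11.3, 13.2 and 15.2 CPM at day 0, 22.7, 20.3 and 20.9 at day 8, 18.1, 19.2 and 18.6 at week 2, 32.4, 28.2 and 27.7 at week 3 and 19.4, 18.1 and 15.5 at week 4. All 3 week 3 samples lay above every other duodenum sample. Arntl rose from day 0 to day 8 by 0.68 ± 0.15 on the log2 scale (SE, adjusted p = 0.000318), rose again from week 2 to week 3 by 0.66 ± 0.15 (adjusted p = 0.00112) and fell by 0.73 ± 0.15 to week 4 (adjusted p = 0.000645). Ileal Arntl was 7.39, 8.81 and 9.86 CPM at day 0, 11.7, 12.3 and 10.3 at day 8, 12.8, 11.98 and 12.1 at week 2, 25.3, 22.4 and 27.1 at week 3 and 19.2, 18 and 22.9 at week 4. Every ileum sample before week 3 was under 13 CPM and every later one at or above 18. The week 3 step in the ileum was 1.02 ± 0.15 (adjusted p = 1.32e-06), and the day 8 and week 4 steps there did not pass the test (adjusted p = 0.0636 and 0.160).

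Clock was level by comparison. Its group means ran from 75.4 ± 3.77 CPM (SD, n = 3) at day 2 to 104 ± 9.27 CPM at day 0 in the duodenum, and from 76.5 ± 31.7 CPM at day 4 to 103 ± 5.06 CPM at week 3 in the ileum. A pair of day 4 libraries stood apart, with 42.9 CPM in duodenum sample 3 and 42.2 CPM in ileum sample 2, while the other 44 samples lay between 71.3 and 113 CPM. Without the day 4 samples Clock passed the test of age in both regions (adjusted p = 0.000722 and 0.0368), so its call depends on those samples.

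The Per genes, which encode the repressors, took separate courses. Per1, which also answers directly to glucocorticoid hormone, stood in the duodenum at 24.9, 26.7 and 35.7 CPM at day 0, 17.9, 17.1 and 17.1 at day 8, 37.7, 31.7 and 32.2 at week 2, 40.99, 22.3 and 23.2 at week 3 and 8.73, 7.89 and 10.01 at week 4. In the ileum the same ages gave 23.9, 24.3 and 49.2, then 8.85, 12.7 and 13.1, then 36.3, 30.7 and 33.4, then 34.8, 25.5 and 19.9, then 7.57, 6.30 and 7.01 CPM. The week 4 samples were the lowest of their region in both regions, and days 2 to 8 lay between them and the high ages of day 0, week 2 and week 3. Per1 fell from day 0 to day 8 by 0.75 ± 0.23 in the duodenum (adjusted p = 0.00742) and by 1.49 ± 0.23 in the ileum (adjusted p = 1.17e-05). The duodenum call rests on day 0 sample 3, since without it adjusted p was 0.0555. From day 8 to week 2 Per1 rose by 0.97 ± 0.23 and 1.53 ± 0.23 (adjusted p = 0.00417 and 0.000462). From week 3 to week 4 it fell by 1.70 ± 0.23 and 1.94 ± 0.24 (adjusted p = 1.51e-06 and 1.62e-07).

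Glucocorticoid response genes are given beside Per1. From day 0 to day 8, 5 of 6 fell in the duodenum and 4 of 6 in the ileum, against 19.2% and 10.7% of all genes called lower. From day 8 to week 2, 4 of 6 rose in the duodenum and 1 of 6 in the ileum (all genes 6.75% and 4.17%), and from week 2 to week 3, 2 of 6 rose in each region (all genes 7.7% and 12.9%) and 1 fell in the duodenum (10.6%). From week 3 to week 4, 3 of 6 fell in each region, against 4.96% and 7.81%. The summed level of 6 of them (Tsc22d3, Fkbp5, Sgk1, Zbtb16, Klf9 and Dusp1) was 554 to 952 CPM at day 0 in the duodenum, 98.4 to 117 at day 8, 350 to 485 at week 2, 413 to 756 at week 3 and 157 to 209 at week 4. In the ileum it was 581 to 1276, then 154 to 177, then 325 to 399, then 622 to 884, then 173 to 236 CPM. Sgk1 averaged 266 of a mean summed level of 408 CPM at week 2 in the duodenum, and members differed in course: Fkbp5 averaged 11.5 CPM at day 8, 6.62 at week 2 and 117 at week 3 in the duodenum, and Klf9 averaged 28.9 CPM at day 0 and 28.3 at day 2. A set of 5 immediate early genes (Fos, Egr1, Junb, Ier2 and Atf3), which respond quickly to many stimuli, summed to 51.7 to 58.2 CPM at day 8 and 209 to 265 CPM at week 4 in the duodenum, where Per1 was lowest. The part of either list in the Per1 result was not tested.

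**Figure D2:**
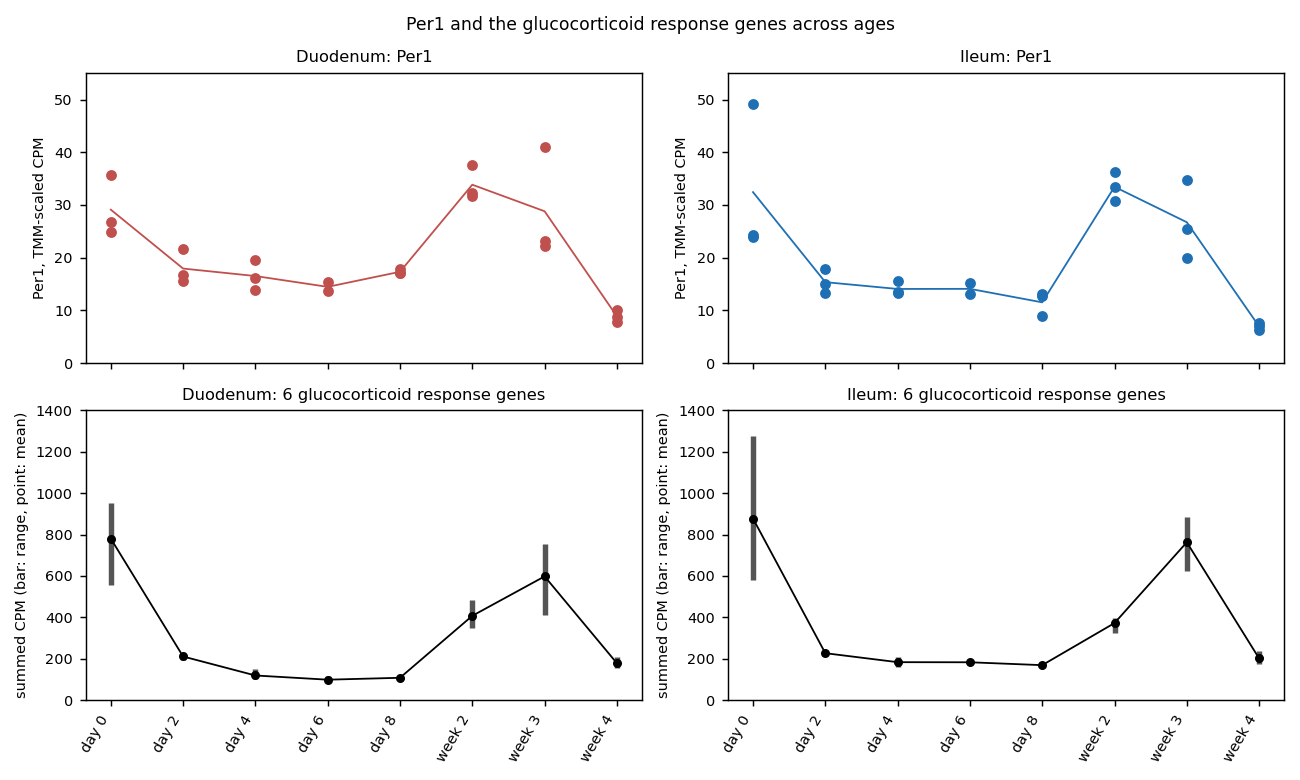
Per1 in every sample (upper panels, TMM-scaled CPM, line through the group means) and the summed CPM of 6 glucocorticoid response genes (lower panels, bar from the lowest to the highest sample, point at the mean) against age, duodenum on the left and ileum on the right. Both the Per1 level and the summed level are high at day 0, low at days 2 to 8, higher at weeks 2 and 3 and lower again at week 4. Per1 has its lowest mean at week 4 in both regions, whereas the summed mean then lies above that of day 8.

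Per2 had its highest level at week 2 in both regions. Duodenum samples stood at 39.3, 38.4 and 40.2 CPM at day 8, 74.6, 77.9 and 74.9 at week 2, 22.1, 25.9 and 26.4 at week 3 and 30.7, 31.4 and 43.3 at week 4. Ileum samples stood at 65.9, 92.8 and 101, then 145, 144 and 139.5, then 31.7, 39.3 and 54.3, then 31.6, 31.99 and 17.8 CPM. All 3 week 2 samples of each region were above all 20 other samples of that region, and the week 3 samples of each region lay below all of its week 2 samples. The rise to week 2 was 0.95 ± 0.22 in the duodenum (adjusted p = 0.00414) and 0.72 ± 0.22 in the ileum (adjusted p = 0.0420). The fall to week 3 was -1.61 ± 0.23 and -1.78 ± 0.23 (adjusted p = 8.73e-07 and 8.44e-08). The ileum rise was lost in 8 of 16 alternatives, among them without day 8 sample 1, which was the lowest of its group (adjusted p = 0.331), and with the sample number as a block (adjusted p = 0.0624).

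Per3, the member with a pair of D-boxes in its window, spanned 3.01 to 7.57 CPM in duodenal and 3.83 to 11.2 CPM in ileal samples from day 0 to week 2. At week 3 it stood at 12.8, 15.6 and 13.1 CPM in the duodenum and 10.96, 23.2 and 23.1 CPM in the ileum, and at week 4 at 14.8, 16.9 and 18.6 and 16.3, 12.5 and 11.2 CPM. Every duodenum sample of weeks 3 and 4 was above every earlier one, whereas in the ileum week 3 sample 1 and week 4 sample 3 lay below the highest day 6 sample. Per3 rose at the week 3 step by 1.23 ± 0.22 and 1.06 ± 0.22 (adjusted p = 4.57e-05 and 0.000183). Per3 lies inside the longer gene Camta1 on the same strand, with no shared exon base, so its counts depend on the authors' assignment of reads to transcripts. Cry1 encodes a partner of the Per proteins in repression. Its group means lay between 15.4 ± 0.696 and 25.9 ± 4.83 CPM in the duodenum and between 15.8 ± 3.78 and 28.3 ± 3.15 CPM in the ileum. It fell from week 2 to week 3 in the ileum by 0.58 ± 0.20 (adjusted p = 0.0294), a call lost without week 2 sample 3, week 3 sample 1 or week 3 sample 3 (adjusted p = 0.123, 0.0984 and 0.166). The test of age in the duodenum for Cry1 (adjusted p = 0.0278) was lost without day 0 sample 1 (0.149).

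The REV-ERB genes encode repressors of Arntl. Nr1d1, the member with the widest spread between groups, spanned 2.41 to 6.05 CPM in duodenal and 2.14 to 4.89 CPM in ileal samples from day 0 to week 2. At week 3 it stood at 45.9, 37.8 and 28.7 CPM in the duodenum and 46.1, 51.3 and 38.7 CPM in the ileum. At week 4 the values were 76.1, 130.4 and 98.6 CPM and 104, 55.3 and 54.9 CPM. The lowest week 3 sample of either region was thus above every earlier sample, and in both regions the week 4 samples were all above those of week 3. The week 3 step was 3.23 ± 0.26 in the duodenum (adjusted p = 3.95e-12) and 3.34 ± 0.26 in the ileum (adjusted p = 8.76e-13). The week 4 step was 1.44 ± 0.24 in the duodenum (adjusted p = 3.9e-05) and 0.65 ± 0.24 in the ileum, where it did not pass the test (adjusted p = 0.0560, and 0.0247 to 0.508 over the 16 alternatives). Nr1d1 overlaps Thra on the opposite strand over 263 exon bases, and no source used here says whether the counting used strand. Thra stood at 83.8 to 115 CPM at week 2 and 86.1 to 96.2 CPM at week 3 in the duodenum, and at 86.2 to 92.4 and 85.9 to 107 CPM in the ileum, so its ranges overlapped across the step at which Nr1d1 rose.

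Nr1d2 is the paralog of Nr1d1. In the duodenum it stood at 9.84, 10.5 and 16 CPM at day 0, 24.9, 28.7 and 26.9 at day 8, 17.5, 24.4 and 24.1 at week 2, 62.3, 59.3 and 53.7 at week 3 and 79.9, 107 and 97.6 at week 4. The ileum gave 6.36, 13.2 and 16.01, then 18.4, 20.4 and 20.3, then 20.1, 20.2 and 19.8, then 64.8, 78.1 and 70.3, then 98.2, 79.1 and 63.7 CPM. In both regions all week 3 and week 4 samples were above all earlier ones. The duodenum rise from day 0 to day 8 was 1.14 ± 0.27 (adjusted p = 0.000770), and the ileum difference was 0.73 ± 0.27 (adjusted p = 0.0562). The week 3 step was 1.41 ± 0.27 and 1.83 ± 0.27 (adjusted p = 0.000135 and 1.61e-06).

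Of the output factors, Dbp rose at the week 3 step in both regions, and Tef passed the test at that step in neither. Dbp spanned 1.59 to 3.48 CPM in duodenal and 1.80 to 3.51 CPM in ileal samples up to week 2. Duodenal samples had 6.40, 8.68 and 6.65 CPM in week 3, then 22.9, 27.9 and 39.6 CPM in week 4. Ileal samples had 7.32, 12.6 and 7.57 CPM, then 16.96, 7.85 and 5.81 CPM. The groups of week 2, week 3 and week 4 did not overlap in the duodenum, while in the ileum week 4 ran from below to above the week 3 samples. The week 3 step was 1.43 ± 0.28 and 1.64 ± 0.28 (adjusted p = 0.000176 and 1.43e-05), and the week 4 step was 2.06 ± 0.28 in the duodenum (adjusted p = 8.26e-07) and 0.15 ± 0.27 in the ileum (adjusted p = 0.775). Dbp shares 539 exon bases with Sphk2 on the opposite strand, which stood at 66.8 to 78.3 CPM at week 3 and 89.8 to 102 CPM at week 4 in the duodenum, where Dbp was 7.24 and 30.2 CPM on average, and at 36.9 to 44.0 CPM at week 2 and 55.6 to 73.7 CPM at week 3 in the ileum. The part of Sphk2 reads in the Dbp values was not tested. Tef stood at 16.9, 20.9 and 19.6 CPM at day 0, 40.8, 34.1 and 35.4 at week 2, 43.8, 52.4 and 31.2 at week 3 and 45.5, 64.7 and 73.5 at week 4 in the duodenum, with no step between weeks 2, 3 and 4 past the test. In the ileum it was 24.8, 20.6 and 20.7, then 55.5, 60.7 and 60.9, then 40.95, 57.5 and 39.6, then 55.4, 43.9 and 26.1 CPM, with overlapping samples at weeks 3 and 4.

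Counts by step begin with week 2 to week 3. There 6 of 10 were called in the duodenum and 7 of 10 in the ileum, against 18.3% and 26.8% of all genes. In the duodenum 5 rose (Arntl, Per3, Nr1d1, Nr1d2 and Dbp), against 7.7% of all genes called higher, and 1 fell (Per2), against 10.6% called lower. In the ileum the same 5 rose and 2 fell (Per2 and Cry1), against 12.9% and 13.9%. The median absolute log2 fold change of the 10 was 0.94 in the duodenum and 1.04 in the ileum, beside 0.44 and 0.53 over all genes. From week 3 to week 4, 4 of 10 were called in the duodenum (Nr1d1 and Dbp up, Arntl and Per1 down), against 12.7% of all genes (7.75% higher and 4.96% lower). In the ileum 1 of 10 was called (Per1 down), against 16.1% (8.26% higher and 7.81% lower). Without the day 4 samples, whose libraries stood apart for Clock, 7 members were called in each region at the week 3 step, and 6 (duodenum) and 3 (ileum) at the week 4 step. The duodenum count for week 4 was 8 by limma on the authors' normalized counts. Over all genes, the count at that duodenum step was 2794 in the main fit and 4568 without the day 4 samples. By limma it was 5275 with 1 added before log2. The all-gene shares of these alternative fits are not given here, so their member counts cannot be set against the shares above.

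At earlier steps the counts were as follows. From day 0 to day 8, 4 of 10 were called in the duodenum (Arntl, Per3 and Nr1d2 up, Per1 down), against 41.2% of all genes (22% higher and 19.2% lower). In the ileum 1 of 10 was called (Per1 down), against 19.3% (8.56% higher and 10.7% lower). In both regions the share was near or below the background. With only the groups compared in the fit, 7 of 10 were called in the duodenum and 2 of 10 in the ileum. The all-gene share of that fit is not given here, so these counts cannot be set against the shares above. From day 8 to week 2, 2 of 10 rose in the duodenum (Per1 and Per2), against 15.7% of all genes (6.75% higher and 8.93% lower). In the ileum 3 of 10 rose (Per1, Per2 and Tef), against 6.64% (4.17% higher and 2.47% lower). That ileum count was 1 without day 8 sample 1, without any 1 of the week 2 samples, or with the day 6 samples numbered 3 included. Without day 8 sample 1 only 60 genes were called in all instead of 1460. The Tef call was lost in 5 of 16 alternatives (adjusted p up to 0.196). Over the whole interval from day 0 to week 4, 9 of 10 differed in the duodenum, against 40.5% of all genes (20.4% higher and 20.1% lower). In the ileum 8 of 10 differed, against 41.9% (21.5% higher and 20.4% lower). Of these, 6 rose in both regions (Arntl, Per3, Nr1d1, Nr1d2, Dbp and Tef), Per1 and Per2 fell in both, and Cry1 fell in the duodenum. Nr1d1 rose by 5.21 ± 0.29 and 4.48 ± 0.28, Dbp by 3.99 ± 0.30 and 2.44 ± 0.29 with adjusted p = 2.59e-17, 5.29e-16, 1.4e-13 and 8.26e-09 in that order. Leaving out single samples took the duodenum count as low as 6 and the ileum count as low as 7.

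**Figure D3:**
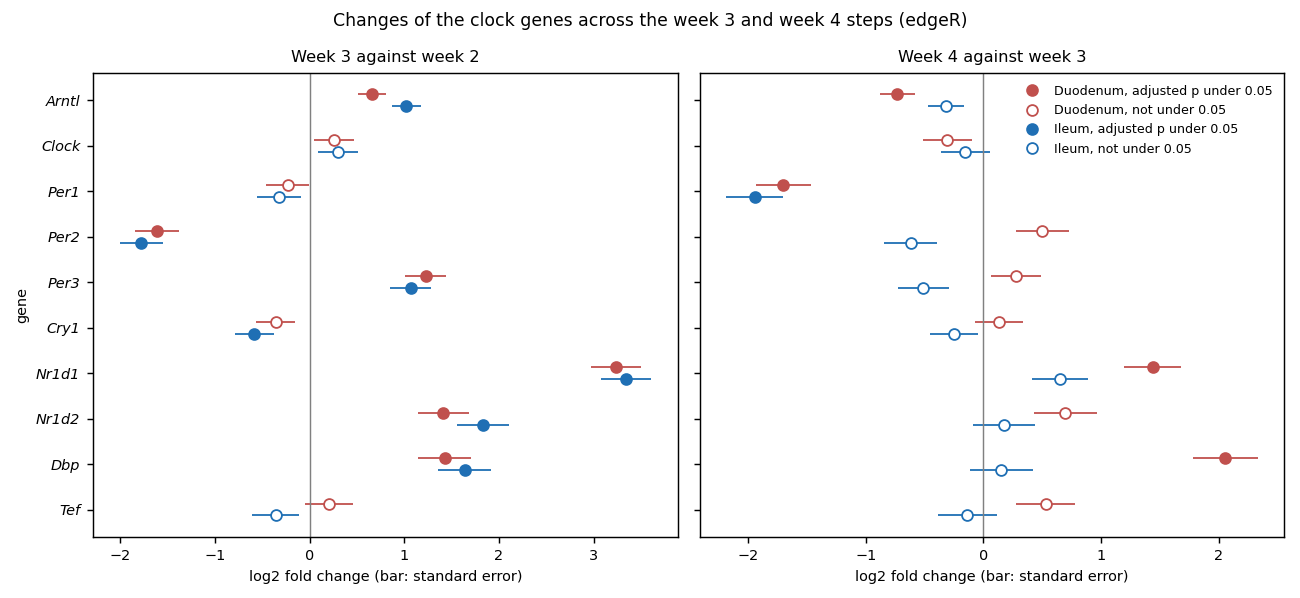
Log2 fold change of each clock gene (points, bars 1 standard error) from week 2 to week 3 (left) and from week 3 to week 4 (right), duodenum in red and ileum in blue, filled where the edgeR adjusted p was under 0.05. At the week 3 step the regions lie close together, apart from Tef, which lies on opposite sides of 0. At week 4 the duodenum points lie to the right of the ileum points for every gene but Arntl and Clock, farthest for Dbp and Per2.

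Since no hour is known, coupled movement was examined directly through genes of opposite phase. In a running clock, Arntl peaks at hours when Nr1d1 and Dbp are low. At the week 3 step Arntl, Nr1d1 and Dbp were all called higher in both regions. At week 4 in the duodenum Arntl was called lower and Nr1d1 and Dbp higher, and in the ileum none of these 3 was called. Age and hour of collection cannot be told apart at either step, and the part of the hour was not tested. Up to week 2 the log2 CPM of Nr1d1 minus that of Arntl in the same sample spanned -2.58 to -0.91 in duodenal and -2.42 to -0.95 in ileal samples. It was 0.50, 0.42 and 0.05 at week 3 and 1.97, 2.85 and 2.66 at week 4 in the duodenum, and 0.86, 1.19 and 0.51, then 2.43, 1.62 and 1.26, in the ileum. The 3 age classes (up to week 2, week 3 and week 4) did not overlap in either region. For Dbp the same difference was -2.33, -1.69 and -2.05 at week 3 and 0.24, 0.62 and 1.35 at week 4 in the duodenum, groups well apart, and in the ileum -1.78, -0.82 and -1.83, then -0.18, -1.19 and -1.97, where they overlapped. Up to week 2 it spanned -3.47 to -1.93 in duodenal and -2.45 to -1.54 in ileal samples, which overlapped week 3 in both regions.

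**Figure D4:**
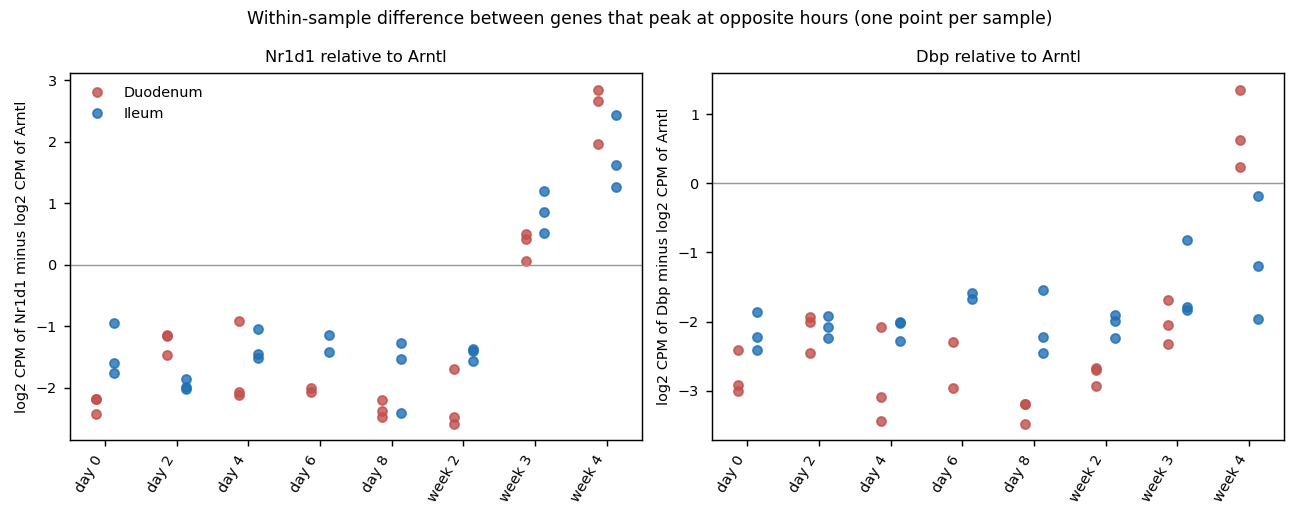
Difference between log2 CPM of Nr1d1 (left) or Dbp (right) and log2 CPM of Arntl within each sample, against age, 1 point per sample, duodenum in red and ileum in blue. For Nr1d1 the points step up at week 3 and again at week 4 in both regions, and for Dbp the duodenum points of week 4 lie above all others.

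Samples of the same age were compared next. Animals of an age taken at different hours would place genes of opposite phase on opposite sides of the group mean. Such deviations cannot show a difference in hour between ages, because each group mean is removed. The part of that difference in the steps between ages was therefore not tested. Deviations of log2 CPM from the group mean were correlated with those of Arntl over the 23 samples of each region, with 100000 permutations within an age and adjustment over 12414 genes, and no gene passed (0% called in both regions, with 9.01% of duodenal and 7% of ileal relations at an unadjusted p under 0.05). With 100000 permutations the smallest possible p was 1e-05, so a single gene at that floor could not have passed the adjustment. The 0% is therefore partly set by the number of permutations. Dbp had Pearson r = -0.47 (Spearman rho = -0.35) among duodenal samples and -0.42 (-0.40) among ileal ones, with permutation p = 0.0631 and 0.175 and adjusted p = 0.573 and 0.690. Without the 2 samples farthest from the median of Arntl these were -0.32 and -0.22. Cry1 also had r below 0 in both regions (-0.42 and -0.55), whereas Nr1d1 was near 0 in the duodenum (-0.08) and -0.23 in the ileum. Clock (r = 0.82) and Nr1d2 (r = 0.79) had the highest values in the duodenum, and both were lower without the 2 farthest samples, at 0.38 and 0.44. Without them duodenal Per2 went from r = 0.16 to -0.69 (permutation p = 0.0345, unadjusted) and duodenal Nr1d1 from -0.08 to 0.29. Ileal Per2 went from -0.21 to 0.23 without the 2 farthest samples of that region. Across the regions, samples sharing an age and a number were compared in 23 pairs. No gene of 12415 passed there either (0% called, 4.87% at an unadjusted p under 0.05), with the same floor on p. Per1 had the highest r of the members, 0.64 (rho 0.59, permutation p = 0.0233, adjusted p = 0.926), and 0.22 without the 2 farthest samples.

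The regions differed in clock gene level over the whole series. Averaged over the 8 ages, 6 of 10 members differed between ileum and duodenum, against 62.1% of all genes (31.9% higher in the ileum and 30.2% lower), so the share is near the background. Per2 (log2 difference 0.69 ± 0.08, adjusted p = 3.56e-09), Tef (0.35 ± 0.09, 0.00114), Per3 (0.34 ± 0.08, 0.000301) and Cry1 (0.23 ± 0.07, 0.00623) were higher in the ileum. Arntl (-0.47 ± 0.06, 3.1e-09) and Nr1d2 (-0.31 ± 0.10, 0.00624) were higher in the duodenum. Per2 was 2.28-fold higher in the ileum at day 6 and 1.89-fold at week 2, with no overlap between the samples of the regions from day 2 to week 3. Arntl in the ileum was 0.538 of its duodenum level at day 8, with no overlap at any age but day 4 and week 4. The Nr1d2 call was lost when the left-out day 6 samples were put back under their labels (adjusted p = 0.0946).

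For 4 of 10 members the gap between the regions itself changed with age, against 22.4% of all genes by edgeR's interaction test. They were Per2 (adjusted p = 0.00226), Dbp (0.00437), Arntl (0.00523) and Tef (0.0340). The ileum minus duodenum difference at week 4 was the lowest of the 8 ages for Per2, Dbp and Tef and the highest for Arntl. Per2 was 24.8 CPM in the duodenum and 41.8 CPM in the ileum on average at week 3, then 35.1 and 27.1 CPM in week 4, when the samples overlapped. Arntl, with an ileum minus duodenum difference of -0.24 on the log2 scale at week 3 and -0.89 at day 8, had 0.18 at week 4. Dbp overlapped between the regions at all ages up to week 3 and at week 4 stood at 30.2 ± 8.58 CPM in the duodenum against 10.2 ± 5.93 CPM in the ileum, with no overlap. The week 4 step differed between the regions for Dbp in a test added after the data had been seen (log2 -1.91 ± 0.38, adjusted p = 0.00650), and for no other member (1 of 10, against 1.18% of all genes, 0.396% higher and 0.782% lower). With only the 4 groups compared in the fit, that Dbp call was lost (adjusted p = 0.166). The interaction counts rest on single choices too: 7 members passed without the day 4 samples, 1 with the left-out day 6 samples under their labels, and 2 without duodenum week 4 sample 3 or ileum week 4 sample 3. The all-gene count of the interaction also rose without the day 4 samples and fell with those day 6 samples. These member counts therefore cannot be set against the 22.4% above.

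**Figure D5:**
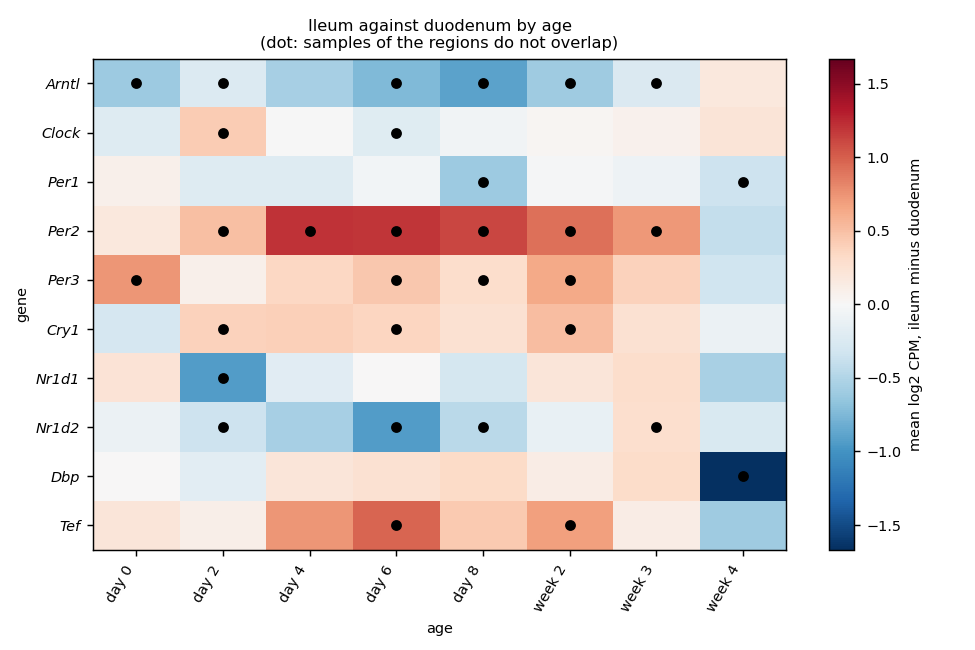
Mean log2 CPM in the ileum minus that in the duodenum for each clock gene (rows) at each age (columns), red where the ileum was higher and blue where the duodenum was, with a dot where the samples of the regions did not overlap. Per2 is red with dots from day 2 to week 3, Arntl is blue up to week 3, and Dbp at week 4 is the darkest blue field.

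Cell type markers are given for the same steps. The summed epithelial markers were 4045 to 4345 CPM at week 2, 5084 to 5922 at week 3 and 6537 to 9460 at week 4 in the duodenum, and 3898 to 4266, then 7238 to 9394, then 5836 to 9399 CPM in the ileum. The sum of 5 immune markers (Ptprc, Cd3e, Cd79a, Lyz2 and Csf1r) was 98.4 to 147 CPM at week 2, 33.4 to 50.6 at week 3 and 69.3 to 99.9 at week 4 in the duodenum, and 125 to 154, then 24.8 to 31.2, then 154 to 307 CPM in the ileum. At the week 3 step 2 of the 5 were called lower in the duodenum and 1 in the ileum, against 10.6% and 13.9% of all genes. At the week 4 step 3 were called higher and 1 lower in the duodenum, against 7.75% and 4.96% of all genes. In the ileum 4 were called higher and 1 lower at that step, against 8.26% and 7.81%. The sum of 5 fibroblast markers (Col1a1, Col3a1, Dcn, Pdgfra and Lum) was 30.5 to 65.3 CPM at week 2, 20.4 to 25.7 at week 3 and 17.1 to 66.8 at week 4 in the duodenum, and 66.0 to 178, then 73.4 to 119, then 85.0 to 187 CPM in the ileum, where samples overlapped. Of the 6 pancreatic acinar markers 5 were at 0 in all ileum samples of week 4, and their sum in the duodenum at weeks 3 and 4 was 0.0354 to 10.4 CPM. The part of these cell types in the clock gene results was not tested.

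A wider list of 18 other clock and output genes (all of which passed the filter) was tested in the same fit. From week 2 to week 3, 9 of 18 were called in the duodenum (4 up, 5 down) and 10 of 18 in the ileum (3 up, 7 down), against 18.3% and 26.8% of all genes. Their median log2 fold changes were -0.08 and -0.34, beside 0.03 and 0.03 over all genes. Hlf, a further member of the Dbp and Tef family, stood at 0.708, 0.870 and 0.920 CPM at week 2, 19.6, 17.1 and 12.1 at week 3 and 2.48, 3.83 and 9.02 at week 4 in the duodenum, and at 1.66, 3.33 and 2.94, then 10.9, 12.4 and 8.25, then 1.17, 0.496 and 0.802 CPM in the ileum. Thus Hlf rose with Dbp at week 3 (log2 4.28 ± 0.45 and 1.99 ± 0.40, adjusted p = 1.54e-09 and 0.000166) and fell at week 4 (-1.68 ± 0.39 and -3.72 ± 0.46, adjusted p = 0.00284 and 1.27e-07), where duodenum Dbp rose. Nfil3 encodes the repressor that competes for D-boxes. It was 15.5, 10.4 and 12.2, then 3.10, 2.79 and 3.65, then 7.07, 6.03 and 4.95 CPM in the duodenum, and 7.34, 7.42 and 9.64, then 2.36, 2.08 and 2.36, then 6.47, 9.31 and 7.88 CPM in the ileum. Week 3 Nfil3 samples lay below all week 2 and week 4 samples of their region (adjusted p = 6.26e-10 and 6.2e-09 for the fall, 0.00124 and 5.32e-08 for the rise).

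Other genes of the list changed at the same steps. Usp2, which encodes a deubiquitinase with clock-driven expression, rose at week 3 by 2.55 ± 0.25 and 3.10 ± 0.25 (adjusted p = 2.99e-10 and 2.47e-12). Rora, an activator at the sequences REV-ERB proteins occupy, fell in the ileum by 2.54 ± 0.39 (adjusted p = 2.95e-06), and did not pass the test in the duodenum (adjusted p = 0.0953). Bhlhe40, a repressor at E-boxes, fell by 1.75 ± 0.16 and 1.78 ± 0.16 (adjusted p = 7.06e-11 and 2.87e-11), and Fbxl21, which acts on Cry proteins, fell by 2.81 ± 0.29 and 2.37 ± 0.29 (adjusted p = 8.88e-10 and 3.04e-08). From week 3 to week 4, 5 of 18 were called in the duodenum (2 up, 3 down) and 7 of 18 in the ileum (2 up, 5 down), against 12.7% and 16.1% of all genes. Npas2, which can stand in for Clock, fell by 0.75 ± 0.22 and 1.26 ± 0.22 (adjusted p = 0.0185 and 6.12e-05), and Cry2, the paralog of Cry1, fell by 0.71 ± 0.22 and 1.36 ± 0.22 (adjusted p = 0.0262 and 2.02e-05).

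Likeness to Arntl was ranked over the 12415 genes of mean log2 CPM at least 1. Over the 16 group means, whose points share age, region and scaling, Pearson r was among the highest for Bmp3 (0.94), Sowahc (0.93), Csnk1g3 (0.92) and Chd1 (0.92) and lowest for Pnpla7 (-0.95), Pde4a (-0.95), Fam167a (-0.93), Tcirg1 (-0.93) and Rdx (-0.93). Among the members Nr1d2 (0.79) and Nr1d1 (0.66) had the highest r with Arntl and Per2 (-0.73) and Cry1 (-0.65) the lowest. By the mean over both regions of r within groups, the highest were Galnt5 (0.77), Osbpl9 (0.77), Neurod1 (0.76), Rest (0.76) and Cul3 (0.76), and the lowest Cuta (-0.74), Entpd6 (-0.72), Atp13a1 (-0.71), Gm23547 (-0.71) and Zfp511 (-0.71). None of the members was among either set of 10, and the samples of a region share their library scaling, so these values describe the libraries.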

How the data were processed

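The deposited values were estimated counts per gene for 48 samples, whole numbers in the file, which the authors summarised from transcripts with tximport per the file name. The authors also deposited a table per region of normalized signal (counts divided by 1 factor per sample), with columns for 40 samples. Per the submitters' processing notes the tools were STAR 2.6.1d, Salmon 0.14.2 and DESeq2 1.30.1 and the build mm10; the annotation release and strand setting are not given in the sources used here. From the counts, edgeR 4.0.16 (R 4.3.3) was run with TMM scaling, the default expression filter and robust quasi-likelihood tests, with 1 mean for each of 16 groups over 46 samples, and Benjamini-Hochberg adjustment over 21986 genes in each of 15 comparisons at a threshold of 0.05. Scripts were tested on simulated data. Depth ranged from 16824021 to 65042327 counts. Alternatives used DESeq2 1.42.0, limma 3.58.1 (with 1 or 0.1 added to the normalized signal before taking log2), other filters and scaling, left-out samples and a block on the sample number. The 10 members were always named, other clock genes where called, and the genes most like Arntl as the 5 highest and 5 lowest r. Some results that fall under this rule are not reported here. The members, gene lists and the marker lists were chosen with earlier results of these data known. 1 comparison, the week 4 step of the ileum minus that of the duodenum, was added after the data were seen. The day 6 samples numbered 3 were left out because their region markers go against their labels.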

Additional observations from a re-analysis of the deposited data

Results flagged for a closer look

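The region gap changed with age by edgeR's interaction test over the 8 ages for Arntl (adjusted p = 0.00523), Per2 (adjusted p = 0.00226), Dbp (adjusted p = 0.00437) and Tef (adjusted p = 0.0340). The Arntl call was lost in 4 alternatives (adjusted p up to 0.0855), the Tef call in 5 (up to 0.286), and the Per2 call with the left-out day 6 samples put back under their labels (0.114). The week 4 step of Dbp differed between the regions by -1.91 ± 0.38 on the log2 scale (edgeR adjusted p = 0.00650), in a comparison chosen after the data were seen. Dbp was higher at week 4 than at week 3 in 3 of 3 duodenum samples, while ileum samples of the same ages overlapped.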

How the results depend on the processing

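Of 150 tests of a member in a comparison, 74 were called, 60 of these stayed called in every alternative run, 14 were lost at least once, 29 others were called at least once and 0 changed direction among called values. With only the groups compared in the fit, 7 and 2 members were called from day 0 to day 8 (duodenum, ileum) and 0 in the added contrast of week 4 steps, and all-gene counts were 6278 and 3472 from day 8 to week 2, 1527 from week 3 to week 4 in the ileum (66.0% higher, against 51.4%) and 18 in the added contrast (22.2% higher, against 33.6%). With a mean count of at least 10, 2 members were called in the ileum both from day 0 to day 8 and from week 3 to week 4, and the share of higher calls was 49.8% in the duodenum at week 4 (against 60.9%) and 50.2% in the added contrast. DESeq2 called 3 and 3 members at those ileum steps, 2 in the added contrast, and 629 genes there. Without the day 4 samples, the ileum steps gave 5 and 3 members, the interaction 7 members and 9512 genes, and the added contrast 2 members and 550 genes (57.5% higher); 3037 genes were called from day 8 to week 2 in the ileum and 4568 from week 3 to week 4 in the duodenum (41.2% higher). Limma on normalized signal plus 1 or plus 0.1 called 2 members at each of those ileum steps, 8 members in the duodenum at week 4, and in the duodenum 5652 and 5586 genes from day 8 to week 2, 6210 and 6049 from week 2 to week 3, and 5275 and 5143 from week 3 to week 4. With the left-out day 6 samples, 1 member was called in the ileum from day 8 to week 2 and 1 in the interaction, and all-gene counts were 1528 and 417 from day 8 to week 2, 947 in the interaction and 61 in the added contrast. Without a low-count filter 886 genes were called from day 8 to week 2 in the ileum and 159 in the added contrast, and RLE scaling called 2 members in the ileum at week 4. Main counts were 3448 and 1460 from day 8 to week 2, 4014 from week 2 to week 3 in the duodenum, 2794 and 3534 from week 3 to week 4, 4930 in the interaction and 259 in the added contrast. The cause of these differences was not tested.

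Leaving out 1 sample at a time gave 2639 to 3685 genes and 1 to 3 members from day 0 to day 8 in the ileum, 825 to 3018 genes in the duodenum and 60 to 1376 genes and 1 to 3 members in the ileum from day 8 to week 2 (60 without ileum day 8 sample 1), and 1706 to 2738 genes in the duodenum and 2331 to 4368 genes and 1 to 3 members in the ileum from week 3 to week 4. The interaction gave 2 to 5 members and the added contrast 102 to 1046 genes and 1 to 3 members.

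The labels do not say that sample numbers pair duodenum and ileum, and the block was kept as an alternative because the correlation of deviations was over 0.1 in 16 of 23 pairs and not in all. Its mean was 0.16 (range -0.36 to 0.67), against -0.08 for different numbers. Deviations within a group cancel out, so the value for different numbers follows from that for the same number and is no separate baseline. With the number as a replicate block, Per2 was no longer called from day 8 to week 2 in the ileum (adjusted p = 0.0624) or from day 0 to week 4 in the duodenum (adjusted p = 0.0527), Per1 was called between regions (adjusted p = 0.00878), and no other call of a member changed. Limma could not be used between regions, since the authors' tables were normalized separately.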
